A study of Homo sapiens with 6 samples.

Results

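The G2/M mitotic genes are 30 genes whose products drive cells through the end of G2 phase and through mitosis. They were chosen by symbol, and each was measured by 1 probe set of the array, the one with the highest mean signal over the 6 arrays. All 30 had such a probe set, among 19775 genes with one. HT-29 is an established human colon adenocarcinoma cell line. In the 5-Aza-treated group (3 HGU133 Plus2.0 microarrays) HT-29 cells were exposed to 10 µM 5-Aza (5-aza-2′-deoxycytidine, a DNA methyltransferase inhibitor) over 72 hours. The control group (also 3 microarrays) received only the solvent, made of water and acetate. The exposure to 5-Aza took place in medium without serum, and the medium of the controls is not given in the sources used here. Whether replicates stand for separate cultures is not given in the sources used here, and p-values then describe only how far these 6 arrays scatter.

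Progress into mitosis rests on cyclin-dependent kinase 1, which is switched on by cyclins A and B and by CDC25 phosphatases. Polo-like and Aurora kinases then build the spindle, kinesins move and anchor its microtubules, and kinetochore proteins tie the chromosomes to it. A checkpoint holds the anaphase-promoting complex until every chromosome is attached, after which cyclins and other mitotic proteins are degraded. Most of these genes are transcribed late in the cell cycle and are kept off in resting cells, so that their RNA is a common marker of proliferation. 5-Aza enters DNA during replication and therefore acts on cycling cells.

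Many promoters of this class hold a CHR element, bound by the DREAM and MuvB complexes, and CCAAT boxes, bound by NF-Y. RefSeq promoter sequences were matched by symbol for 24 of the 30 genes. Not matched were FOXM1, AURKA, TTK, BIRC5, TPX2 and UBE2C. The 250 bases before the start were searched for the CHR letters TTTGAA on both strands (TTCAAA on the other) and for CCAAT on both strands (ATTGG). The CHR letters stood in 13 of 24 promoters (54.2%), against 13.6% of 27305 promoters of all genes and 10.8% of 15843 promoters of protein-coding genes. CCAAT stood in 20 of 24 (83.3%), against 33% of all and 34.5% of protein-coding genes. Both stood in 12 of 24 (50%), against 4.85% and 4.18%. These letters are known for this class of genes, so the shares describe the genes and not the treatment.

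Of 8 genes the 200 bases before the start are shown, since these genes mark the range of the array results. KIF11, KIF23, NUSAP1 and TOP2A were the genes with no overlap between the groups, and HMMR had the largest difference. CCNB2 is an intermediate gene with the textbook arrangement of motifs, and PLK1 and KIF20A had the lowest differences. Capitals mark the CHR and CCAAT letters on either strand, and each sequence runs 5′ to 3′ along the strand of the gene.
KIF11 (GRCh38.p14 chr10:92592930-92593129, plus strand): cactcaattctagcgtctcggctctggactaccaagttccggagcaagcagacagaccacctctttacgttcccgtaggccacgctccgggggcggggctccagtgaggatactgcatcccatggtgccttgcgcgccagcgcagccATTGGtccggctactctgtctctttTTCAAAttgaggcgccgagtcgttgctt
KIF23 (GRCh38.p14 chr15:69414149-69414348, plus strand): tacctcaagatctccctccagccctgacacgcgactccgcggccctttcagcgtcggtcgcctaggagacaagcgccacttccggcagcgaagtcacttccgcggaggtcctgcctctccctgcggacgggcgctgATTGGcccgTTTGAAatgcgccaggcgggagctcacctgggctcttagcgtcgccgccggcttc
NUSAP1 (GRCh38.p14 chr15:41332681-41332880, plus strand): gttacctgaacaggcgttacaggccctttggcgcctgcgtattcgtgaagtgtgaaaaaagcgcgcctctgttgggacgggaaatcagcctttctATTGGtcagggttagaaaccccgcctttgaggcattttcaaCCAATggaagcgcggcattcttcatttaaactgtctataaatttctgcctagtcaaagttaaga
TOP2A (GRCh38.p14 chr17:40417897-40418096, minus strand): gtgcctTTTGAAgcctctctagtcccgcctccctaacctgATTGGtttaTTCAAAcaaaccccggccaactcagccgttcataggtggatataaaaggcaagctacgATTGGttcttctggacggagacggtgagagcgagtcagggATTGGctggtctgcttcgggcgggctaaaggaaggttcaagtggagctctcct
HMMR (GRCh38.p14 chr5:163460432-163460631, plus strand): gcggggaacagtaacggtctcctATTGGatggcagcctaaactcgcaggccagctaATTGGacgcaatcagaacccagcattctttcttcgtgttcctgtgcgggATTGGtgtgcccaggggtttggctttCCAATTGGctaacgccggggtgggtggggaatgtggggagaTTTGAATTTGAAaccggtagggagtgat
CCNB2 (GRCh38.p14 chr15:59104946-59105145, plus strand): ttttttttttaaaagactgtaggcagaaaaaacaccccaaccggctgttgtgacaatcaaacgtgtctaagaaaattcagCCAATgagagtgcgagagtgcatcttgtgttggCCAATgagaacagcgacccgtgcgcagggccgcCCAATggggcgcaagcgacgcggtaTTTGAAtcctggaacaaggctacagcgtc
PLK1 (GRCh38.p14 chr16:23678689-23678888, plus strand): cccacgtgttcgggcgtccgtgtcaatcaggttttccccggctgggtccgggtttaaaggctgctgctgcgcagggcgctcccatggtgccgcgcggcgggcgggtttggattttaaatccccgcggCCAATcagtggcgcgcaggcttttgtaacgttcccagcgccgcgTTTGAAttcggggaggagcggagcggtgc
KIF20A (GRCh38.p14 chr5:138178912-138179111, plus strand): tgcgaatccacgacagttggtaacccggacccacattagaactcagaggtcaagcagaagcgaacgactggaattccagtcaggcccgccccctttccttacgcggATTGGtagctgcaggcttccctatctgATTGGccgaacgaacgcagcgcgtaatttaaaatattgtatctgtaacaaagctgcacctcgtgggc

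In CCNB2 and PLK1 the CHR letters began 29 bases before the start, downstream of the CCAAT letters (54 and 73 bases before the start for the nearest). HMMR held 2 adjacent copies, which began 28 and 22 bases before the start, and its CCAAT letters, 69 bases before the start, overlapped ATTGG letters that began 66 bases before it. In TOP2A the CHR letters lay farther upstream, 194 and 151 bases before the start. KIF11 held the CHR letters on the other strand. In NUSAP1 and KIF20A these letters were not found in the window searched. The median log2 fold change on 5-Aza was 0.21 for the 13 genes with the CHR letters and 0.23 for the 11 without. Genes with and without the letters thus had similar medians, and this difference was not tested.

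All 30 genes gave signals above background on all 6 arrays. Background was set for each array as the highest signal of a bacterial control transcript (22.6 to 42 on the 6 arrays), and the genes had signals from 402.9 to 9046.2. Of 13 markers of colon epithelium 9 lay above background on every array, among them EPCAM and KRT20, and CDX1 lay below it on all. Of markers of other cell types, 1 of 6 for fibroblasts (COL1A1), 1 of 5 for leukocytes (LYZ, lysozyme) and 1 of 4 for endothelium (PECAM1) lay above background on every array. LYZ was bright, with signals from 19665.5 to 31427.7, while the leukocyte antigen PTPRC lay above background on 1 array. Over the 12089 genes above background on all arrays, the median log2 deviation from the mean of the 6 arrays lay between -0.016 and 0.035.

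5-Aza-treated cells had slightly higher mean signals of most of the mitotic genes as deposited, but none passed the test. After median centring 19 of 30 were higher, against 20862 of all 54614 probe sets. The log2 fold change (5-Aza-treated minus control, after 1 was added to each signal) was positive for 28 of the 30 and negative for 2, with a median of 0.20, a lowest value of -0.11 (KIF20A) and a highest of 0.50 (HMMR). A positive value was found for 56.9% of all 54614 probe sets, whose median was 0.062, and for 54.6% of those above the median signal. Centring each array on its median moved the median of all probe sets to -0.12 and that of the mitotic genes to 0.013. The median of the 12089 genes above background moved from 0.0017 to -0.18, and 2557 of them were then positive. Centring turned the sign of CDC25C, FOXM1, AURKA, AURKB, BIRC5, CENPE, KIF2C, TPX2 and CDC20. Quantile normalization gave the mitotic genes a median of 0.23 with 28 positive. In the limma fit across all probe sets, no mitotic gene of the 30 reached an unadjusted p under 0.025 in either direction (0 higher, 0 lower), a threshold that 2.97% of all probe sets passed upward and 1.05% downward. At an unadjusted p under 0.05 the counts were also 0 and 0, against 5.26% and 1.97% of all probe sets. At an adjusted p under 0.05, 0 passed by limma and 0 by the SAM-type statistic, and limma called 0% of all probe sets in either direction. The smallest adjusted p of a mitotic gene was 0.709 (NUSAP1). When only probe sets above the median signal were tested, 1 gene (NUSAP1) was higher at an unadjusted p under 0.025 and 0 were lower, against 4.39% and 1.55% of those probe sets, and 0 passed an adjusted p under 0.05, against 0.033% higher. With trend and robust variance, where the expected variance follows the signal, 7 of the 30 were higher at an unadjusted p under 0.025 and 0 lower, against 3.37% and 1.66% of all probe sets. At an adjusted p under 0.05, 0 were higher or lower, against 0.0403% and 0.00183%. The 7 were CDK1, NEK2, KIF11, KIF23, NUSAP1, HMMR and TOP2A.

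The difference between the groups depended on the control array it was read against. On control replicate 2 every one of the 30 genes was higher than on control replicates 1 and 3. Of all probe sets 32.1% had this order, and of those above the median signal 32.3%. On the log2 scale control replicate 2 exceeded the mean of the other controls by 0.15 (KIF2C) to 0.76 (CDC20), with a median of 0.44, while the median over the 12089 genes above background was -0.010. It was the highest control for 30 of 30 also after median centring and after quantile normalization.

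Against control replicate 1 the treated mean was higher for 30 of 30 genes, with a median log2 difference of 0.35. Against control replicate 3 it was also higher for 30 of 30, with a median of 0.33. Against control replicate 2 it was higher for 8 and lower for 22, with a median of -0.052. For genes above background these medians were 0.016, -0.031 and 0.0083. In 15 genes control replicate 2 lay above all treated arrays, in 11 between them, and in 4 below them. Without control replicate 2 every treated array lay above both other controls for 29 of the 30 genes, all but KIF20A, an order that 15.9% of all probe sets and 17.7% of those above the median signal showed. With median centring as well, 19 of the 30 had this order. The share of all probe sets with this order after centring is not given here, so this 19 has no share to be read against. On the values as deposited, the median log2 fold change without control replicate 2 was 0.35, with 30 of 30 positive, and NEK2 and HMMR were higher at an unadjusted p under 0.025 and 0 lower, against 3.15% and 1.31% of all probe sets. None (0) passed an adjusted p under 0.05.

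**Figure D1:**
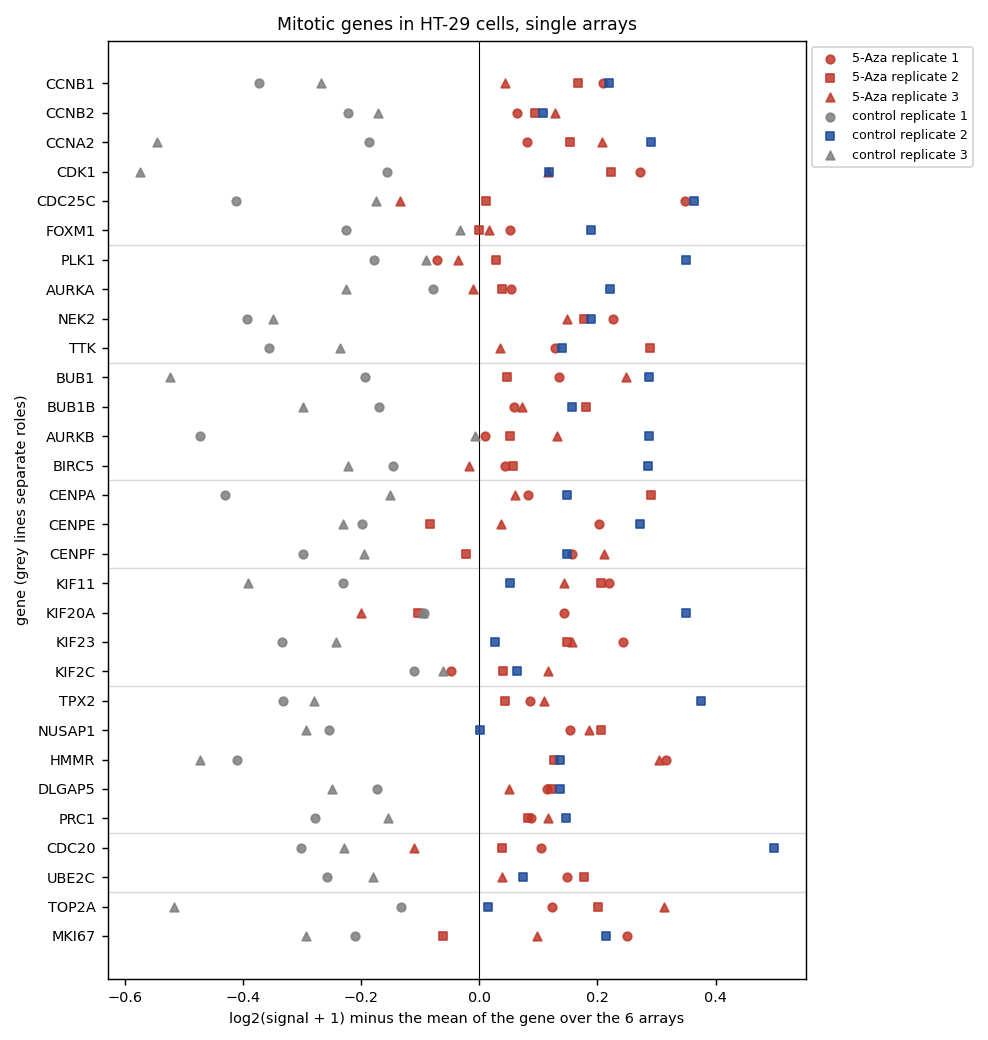
Signals of the 30 mitotic genes on single arrays, as log2(signal + 1) minus the mean of each gene over the 6 arrays (horizontal axis), with 1 row for each gene. Red symbols are 5-Aza-treated arrays, grey symbols control replicates 1 and 3, and blue squares control replicate 2, which lay to the right of both other controls for 30 of 30 genes.

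The treated arrays lay close together. Their SD on the log2 scale had a median of 0.069 over the 30 genes, against 0.27 for the 3 controls, and it was larger in the controls for 30 of 30 genes. For genes above background the medians were 0.12 and 0.18, and the SD was larger in the controls for 66.0%. Control replicates 1 and 3 taken alone had a median SD of 0.069. In these bulk samples, a different share of cells in G2 and mitosis and a different amount of this RNA in each cell cannot be told apart.

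Among the cyclins and their kinase, CDK1 had the largest difference. CDK1, the kinase that starts mitosis, had signals of 7750.4, 7492.8 and 6954 in treated cells and of 5759.8, 6964.6 and 4308.4 in control cells. The groups overlapped only between 5-Aza replicate 3 and control replicate 2. CDK1 differed by 0.41 on the log2 scale, with an SE of 0.22 (adjusted p = 0.766, limma). CCNB1, its B-type cyclin, had 3949.7, 3834.7 and 3518.5 in treated cells and 2635.6, 3976.9 and 2834.8 in control cells. Control replicate 2 was the highest of the 6 arrays there, and the log2 fold change was 0.28 (SE 0.21). CCNA2, the cyclin of S and G2 phase, had 2037.8, 2144.7 and 2227.3 in treated cells and 1693.6, 2358 and 1320.6 in control cells. Control replicate 2 was again the highest of the 6 arrays, and the log2 fold change was 0.29 (SE 0.25).

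CCNB2, a B-type cyclin of the Golgi region, had a log2 fold change of 0.19. CDC25C, a phosphatase that activates CDK1, had 0.15 (SE 0.27), which turned to -0.15 with the mean of its 3 probe sets. A dim probe set among these, with signals from 7.5 to 70.7, had -0.93 and lay above background on 1 array. Another, above background on all 6 arrays, had 0.33. FOXM1, the transcription factor that activates many of these genes late in the cycle, had signals of 1425, 1373.2 and 1389.5 in treated cells and of 1175.3, 1565.7 and 1343.7 in control cells. Its treated arrays lay between the extremes of the controls, and the log2 fold change was 0.046 (SE 0.17, 95% interval from -0.37 to 0.46). It was measured by a probe set with the suffix _x_at, whose probes may match other transcripts, as was CENPA.

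The log2 fold changes of the 4 mitotic kinases lay between -0.054 and 0.37, and differences between these kinases were not tested. PLK1, needed for centrosome maturation and spindle assembly, had 958.4, 1027.2 and 982 in treated cells and 890.6, 1283.7 and 945.8 in control cells. Its log2 fold change was -0.054 (SE 0.19), and 0.11 without control replicate 2. AURKA, which acts at spindle poles, had 0.055. NEK2, which separates centrosomes, had 0.37, and TTK, the checkpoint kinase also called MPS1, had 0.30.

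Of the checkpoint kinases BUB1 and BUB1B, which delay anaphase, the log2 fold changes were 0.29 and 0.21. AURKB, the kinase of the chromosomal passenger complex, had 1494.5, 1538.3 and 1625.9 in treated cells and 1069.5, 1811.9 and 1476.4 in control cells. The treated arrays lay inside the range of the controls, with a log2 fold change of 0.13 (SE 0.23). BIRC5 (survivin), another subunit of that complex, had 0.055. The centromere proteins CENPA, the histone H3 variant of centromeres, CENPE, a kinetochore motor, and CENPF, a kinetochore protein, had 0.29, 0.11 and 0.23.

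Among the spindle motors KIF11 and KIF23 had the larger differences and KIF20A the lowest value of all 30 genes. KIF11, the kinesin that pushes spindle poles apart, had 1845.5, 1826.9 and 1750 in treated cells and 1350.3, 1642.4 and 1206.7 in control cells. The lowest treated value exceeded the highest control value. KIF11 differed by 0.38 on the log2 scale, with an SE of 0.17 (adjusted p = 0.727, limma). KIF23, a kinesin of the central spindle, had 1443.1, 1350.3 and 1359.3 in treated cells and 966.4, 1241.6 and 1029.7 in control cells. Here too the groups did not overlap, with a log2 fold change of 0.37 (SE 0.16). KIF20A, which works in cytokinesis, had -0.11 and KIF2C, which depolymerizes microtubules, had 0.072.

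Of the proteins that assemble the spindle and its midzone, HMMR, a microtubule-associated protein also known as a hyaluronan receptor, had the largest difference of the 30. Its signals were 2851.9, 2500.4 and 2830.2 in treated cells and 1723.2, 2518 and 1651.1 in control cells. Only 5-Aza replicate 2 lay below control replicate 2, and the log2 fold change was 0.50 (SE 0.22, a 1.41-fold signal), or 0.39 to 0.69 when 1 array was left out. NUSAP1, which bundles spindle microtubules, had 6964.2, 7229.6 and 7126.2 in treated cells and 5251.9, 6270.8 and 5113 in control cells. The groups did not overlap, and the log2 fold change was 0.36 (SE 0.15). TPX2, which activates AURKA at the spindle, DLGAP5, a spindle assembly factor, and PRC1, which crosslinks midzone microtubules, had 0.16, 0.19 and 0.19.

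In CDC20, the activator of the anaphase-promoting complex, control replicate 2 stood farthest above the other controls of all 30 genes. Its signals were 1424.9, 2481.4 and 1497.1 in control cells and 1887.8, 1802.8 and 1627 in treated cells. Its log2 fold change was 0.022 (SE 0.26), with the mean signal slightly lower in treated cells (1773) than in control cells (1801). UBE2C, the ubiquitin-conjugating enzyme of that complex, had 0.24. TOP2A, the topoisomerase that untangles sister chromatids, had 7931.4, 8371.4 and 9046.2 in treated cells and 6647.4, 7362.7 and 5090.7 in control cells. Its groups did not overlap, with a log2 fold change of 0.42 (SE 0.19). MKI67, which encodes the proliferation marker Ki-67, had 1990.3, 1603.4 and 1789.7 in treated cells and 1446, 1942 and 1365 in control cells. Control replicate 2 exceeded all but 5-Aza replicate 1, and the log2 fold change was 0.19 (SE 0.20).

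The 4 genes whose groups did not overlap, KIF11, KIF23, NUSAP1 and TOP2A, were 4 of 30, where 9.29% of all probe sets and 10.4% of those above the median signal were higher without overlap. Exact permutation of the group labels gave p = 0.1 (two-sided) for each, the smallest p that 3 arrays against 3 allow. No gene (0) was lower without overlap, against 5.22% of all probe sets and 7.12% of those above the median signal. The count of 4 was 0 after median centring, against 4.3% of all probe sets, 9 after quantile normalization, against 7.14%, and 29 without control replicate 2, against 15.9%. The SE of the 30 differences lay between 0.14 and 0.27, and every 95% interval held 0. The lowest bound of an interval was -0.64 (CDC20) and the highest 1.04 (HMMR).

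**Figure D2:**
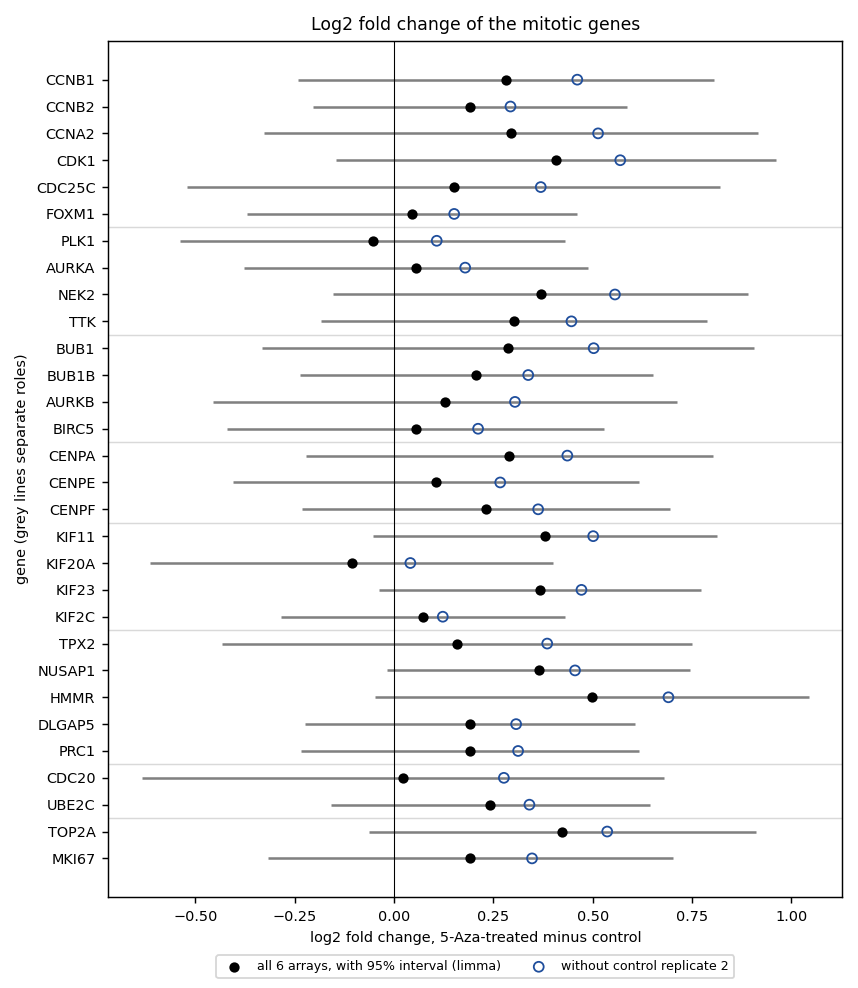
Differences of the 30 mitotic genes between 5-Aza-treated and control arrays, as log2 fold changes. Black points with grey lines are values and 95% intervals of the limma fit with n = 3 arrays per group, and all intervals cross 0. Blue circles are the values without control replicate 2. They lie to the right of the black points for 30 of 30 genes, which follows from control replicate 2 being the highest control in each.

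The other probe sets of these genes were read as a second view of the same RNA. Another 31 probe sets represented 17 of the 30 genes, and 24 of them, again of 17 genes, lay above background on all arrays. Of these 24, 22 had a positive log2 fold change and 2 a negative one, with a median of 0.25, and control replicate 2 was the highest control in 21. For CCNB1 the other probe set had signals of 1173.2, 1259.4 and 1396.6 in treated cells and of 903.9, 1054.5 and 701.4 in control cells, with no overlap and a log2 fold change of 0.54 (SE 0.21). For TOP2A, NUSAP1 and HMMR another probe set also had groups that did not overlap (0.49, 0.37 and 0.42). Of the 24, 5 were higher without overlap, against 9.29% of all probe sets.

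The 3 probe sets of the 24 in which control replicate 2 was not the highest control were 2 of CENPF and a dim one of CCNB2, with signals from 62.1 to 109.2. One of those of CENPF had 457.1, 446.6 and 554.4 in treated cells and 266.1, 250.3 and 284.6 in control cells. The groups were far apart and control replicate 2 was the lowest control. This probe set of CENPF differed by 0.86 on the log2 scale, with an SE of 0.16 (adjusted p = 0.359, limma). It was the only one of the 24 at an unadjusted p under 0.025, against 2.97% of all probe sets higher. The probe set used for CENPF, with signals from 2845.7 to 4051.5, had 0.23. The third probe set of CENPF was dim, with 119.7, 63.3 and 88.6 in treated cells and 104.4, 39 and 56.9 in control cells, and its groups overlapped (log2 fold change 0.50, SE 0.44). The probe sets of CENPF thus disagreed in size and in the order of the controls.

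**Figure D3:**
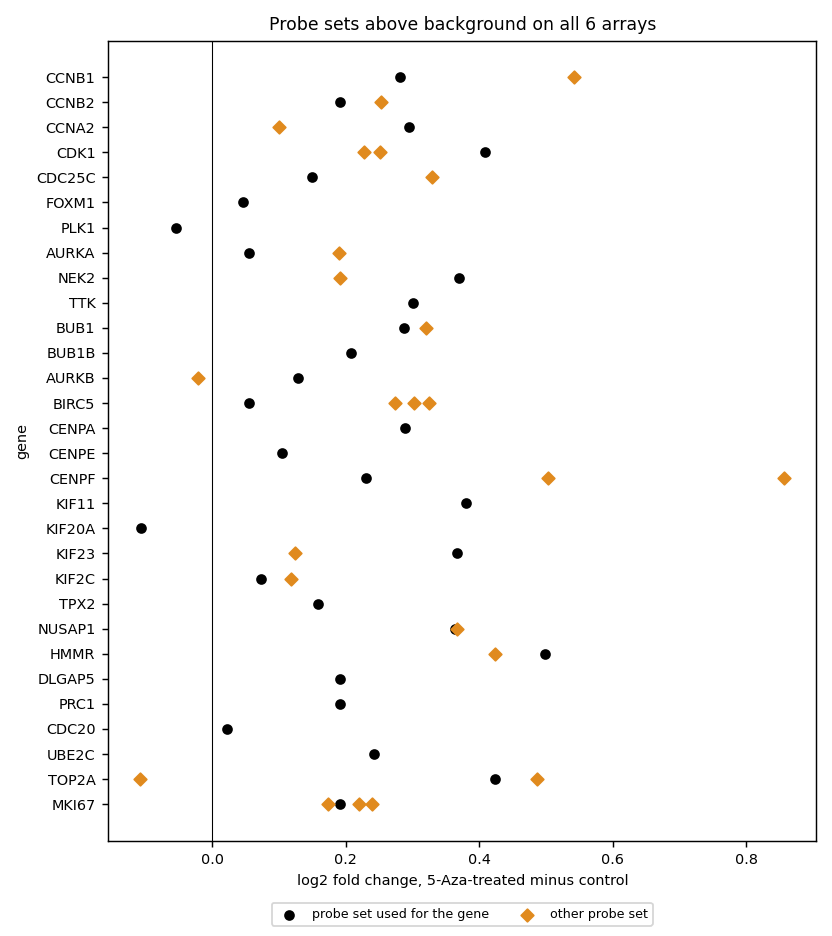
Differences between 5-Aza-treated and control arrays, as log2 fold changes, for the probe sets of the 30 mitotic genes that lay above background on all 6 arrays. Black circles are the probe sets used for the genes and orange diamonds the 24 others. The other probe set of CENPF at 0.86 stands farthest to the right.

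The order of the arrays was shared by related genes. A list of other G2/M genes, with condensins, further kinesins and kinetochore proteins, had 69 of 70 genes measured. At the unadjusted threshold of 0.025, 3 of the 69 were called, each of them higher, against 2.97% of all probe sets, and 12 with trend and robust variance, against 3.37%. As deposited, 61 had a positive value, with a median log2 fold change of 0.18. After median centring 33 did, with a median of -0.0081. At 0.025, 0 were then called, against 926 higher and 1451 lower of all 54614 probe sets. Without overlap 14 were higher, against 9.29% of all probe sets. At an adjusted p under 0.05, 0 passed by limma. The wider unadjusted threshold of 0.05 called 6 higher and 0 lower, against 5.26% and 1.97% of all probe sets. The 3 were CENPK, a subunit of the inner kinetochore (log2 fold change 0.64), MAD2L1, the checkpoint protein that binds CDC20 (0.60), and NUF2, of the kinetochore complex that holds microtubules (0.55). ECT2, which starts the contractile ring of cytokinesis, had 0.42. Control replicate 2 was the highest control for 62 of the 69.

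Genes of DNA replication, which are expressed in S phase, had 47 of 48 measured. Control replicate 2 was the highest control for 47 of 47, by a median of 0.42 on the log2 scale, close to the 0.44 of the mitotic genes. The treated mean was lower than control replicate 2 for 40 of the 47, with a median log2 difference of -0.23, where the mitotic genes had -0.052. The difference between these lists was not tested. The median log2 fold change of the replication genes was 0.082 with 31 of 47 positive. It was -0.10 with 11 positive after median centring, -0.031 without control replicate 3, and 0.21 with 40 positive without control replicate 2. At the unadjusted threshold of 0.025, 1 gene was called, and higher, against 2.97% of all probe sets. After median centring 0 were called, against 926 higher and 1451 lower of all 54614 probe sets. The 1 gene called as deposited was ORC6, a subunit of the origin recognition complex (0.75, by an _x_at probe set). It was followed by GINS3 (0.45) of the replicative helicase, CDC7 (0.27), a kinase that fires origins, and CHAF1A (0.30), a histone chaperone.

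Regulators of these promoters had no common direction. Of 21 measured genes of the MuvB, DREAM, E2F and MYB list 1 passed an unadjusted p under 0.025, being higher, and 0 were lower. That threshold was passed by 2.97% of all probe sets upward and by 1.05% downward. The log2 fold changes of the 21 genes had a median of 0.0034. RBL1 (p107), a pocket protein that represses cell cycle genes in the DREAM complex, had signals of 249.5, 236.8 and 240.2 in treated cells and of 128, 164.7 and 151 in control cells. Its groups did not overlap. RBL1 differed by 0.71 on the log2 scale, with an SE of 0.16 (adjusted p = 0.460, limma), and by 0.62 to 0.80 when 1 array was left out. RB1, the retinoblastoma protein, had 0.38, the repressor E2F7 had 0.31, and NFYA, a subunit of the factor that binds CCAAT, had -0.43, with its highest treated signal under its lowest control signal.

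Of 13 measured subunits and partners of the anaphase-promoting complex, which marks mitotic proteins for degradation, the median log2 fold change was -0.042. CDC27, a core subunit, was the only one at an unadjusted p under 0.025 (0.49), against 2.97% of all probe sets higher. CDC26, ANAPC2 and CDC16 had -0.26, -0.24 and -0.24. Control replicate 2 was the highest control for 3 of the 13. Of 19 measured genes of the G2 checkpoint and damage response 0 passed an unadjusted p of 0.025 or 0.05 by limma in either direction. Of all probe sets 2.97% were higher and 1.05% lower at 0.025, and 5.26% and 1.97% at 0.05. With trend and robust variance 0 passed 0.025, against 3.37% of all probe sets higher and 1.66% lower. Without control replicate 2, 1 was higher, against 3.15% of all probe sets. BRCA1, SFN, ATR and TP53BP1 had log2 fold changes of 0.38, 0.27, 0.21 and -0.26. CDKN1A (p21), the inhibitor of cyclin-dependent kinases induced by damage, had signals of 901.7, 981.8 and 940.3 in treated cells and of 801.9, 1147.8 and 587.3 in control cells. The treated arrays of CDKN1A lay within the controls (log2 fold change 0.21, SE 0.27), and GADD45A, which is induced by damage, had -0.12. After median centring the medians of the regulators, the anaphase-promoting complex and the checkpoint list were -0.18, -0.23 and -0.073.

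**Figure D4:**
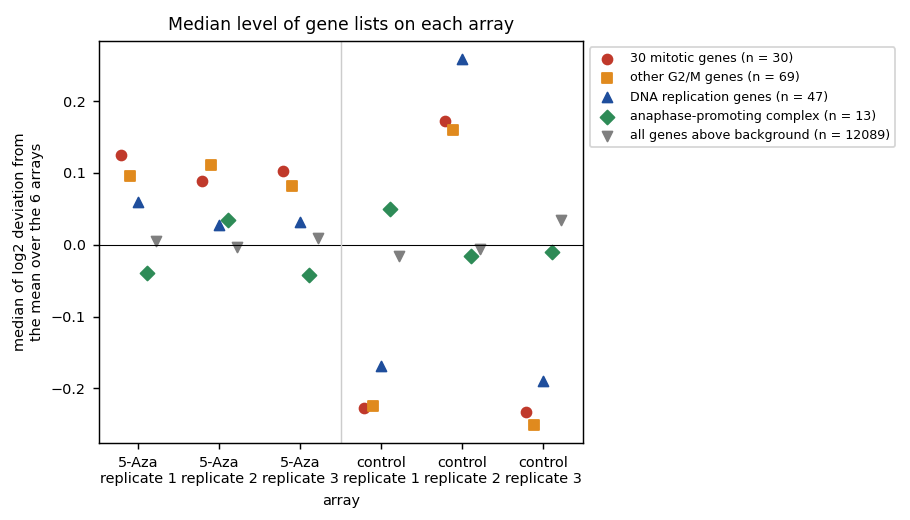
Median, over the genes of each list, of the log2 deviation from the mean of the 6 arrays, for each array. The mitotic genes (red circles), other G2/M genes (orange squares) and DNA replication genes (blue triangles) lay above 0 on control replicate 2 and below 0 on control replicates 1 and 3, while all genes above background (grey triangles) stayed between -0.016 and 0.035.

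The median deviation of the 30 mitotic genes was 0.13, 0.089 and 0.10 on the treated arrays, -0.23 on control replicate 1, 0.17 on control replicate 2 and -0.23 on control replicate 3. The treated arrays thus lay nearer to control replicate 2 than to either of the others. The genes above background had a median deviation of -0.0059 on control replicate 2. Whether control replicate 2 differed in culture or in handling was not tested.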

How the data were processed

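RNA levels were read from 6 HGU133 Plus2.0 microarrays, 3 of 5-Aza-treated and 3 of control HT-29 cells, grouped by the source names in the labels. The dose and time come from the methods of the study. The deposited values are linear intensities, 1 for each of 54675 probe sets and array, made by the authors with the affy package per the labels' processing notes (version, background correction and summarization not given in the sources used here). Each array had the same mean (500) without the lowest and highest 2% of values, so the arrays had been scaled. No depth applies to arrays, and their number limits the precision.

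After removal of 61 control probe sets, 1 was added, log2 was taken, and groups were compared over 54614 probe sets with limma 3.58.1 in R 4.3.3 (group as the only term, Benjamini-Hochberg adjustment). The unadjusted p under 0.025 is the threshold of the study for this comparison. Single values were compared with an exact permutation test (scipy 1.17.1, two-sided). The fit was tested on simulated data.

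A gene was represented by its probe set with a single symbol and the highest mean signal, _x_at only if no other. All 30 genes are named. Of these, array values are given for genes past the unadjusted threshold or without overlap and for 8 genes listed by name. HMMR, and CDC20 for its control replicate 2, were added after their values were seen. Of each other list, up to 4 genes with the smallest p are named, as well as CDKN1A, GADD45A and SFN, mostly by their log2 fold change alone. The genes, the lists and the tests were chosen with earlier results of these data known. Alternatives were quantile normalization, median centring, 16 in place of 1, a filter above the median signal, trend and robust variance, a SAM-type statistic, the replicate number as a block, averaging every probe set of a gene, and leaving out each array. The count of genes without overlap was recomputed under some of these after the data had been seen.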

Additional observations from a re-analysis of the deposited data

How the results depend on the processing

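The count of mitotic genes higher at an unadjusted p under 0.025 (0) was 1 with the filter above the median signal (NUSAP1), 7 with trend and robust variance, and 0 to 2 when 1 array was left out (2 without control replicate 2). It stayed 0 under the other alternatives, as did the count of lower genes and both counts at an adjusted p under 0.05 under all of them. The count of genes higher without overlap (4) was 0 after median centring, 9 after quantile normalization, 5 with the mean of all probe sets, and 4 to 29 when 1 array was left out (29 without control replicate 2). Shares over all features are not given here for the mean of all probe sets, or for arrays left out other than control replicate 2. An array left out cannot lower such a count, whichever genes are read. The median log2 fold change of the 30 genes was 0.13 to 0.35 when 1 array was left out.

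Median centring moved the median of all probe sets from 0.062 to -0.12, and that of the mitotic genes from 0.20 to 0.013, with 19 of 30 positive. The median of the 12089 genes above background moved from 0.0017 to -0.18, with 2557 positive. After median centring the sign turned for CDC25C (-0.037), FOXM1 (-0.14), AURKA (-0.13), AURKB (-0.058), BIRC5 (-0.13), CENPE (-0.082), KIF2C (-0.11), TPX2 (-0.028) and CDC20 (-0.17). It turned for CDC25C with the mean of all probe sets (-0.15), which includes a dim one with -0.93 that lay above background on 1 array. When 1 array was left out, values ranged from -0.019 to 0.37 for CDC25C, -0.055 to 0.15 for FOXM1, -0.16 to 0.11 for PLK1, -0.045 to 0.18 for AURKA, -0.076 to 0.30 for AURKB, -0.043 to 0.21 for BIRC5, -0.21 to 0.041 for KIF20A and -0.12 to 0.28 for CDC20. Centring lowered every log2 fold change by the same amount, so small positive values turned negative. The cause of the turns when 1 array was left out was not tested. Arrays of both groups with the same replicate number did not deviate together (correlations -0.012, 0.0021 and 0.0097). With the replicate block 0 genes were higher at an unadjusted p under 0.025, and the median stayed at 0.20.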
